A study of Mus musculus with 56 samples.

Results

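The genes described here are 34 genes of the lysosome, made up of proteases, glycosidases, enzymes and carriers that handle lipids, membrane proteins and regulators. They were chosen by symbol. All 34 were found among the 57010 genes measured in bone, muscle and skin and among the 52636 measured in heart, and all 34 passed the filter on low counts in every fit. Monocytes and macrophages were sorted from injured tissue of mice and their RNA was sequenced in bulk, as tags near transcript 3′ ends. The injuries were myocardial infarction in heart, a defect of the skull in bone, volumetric muscle loss in muscle and a full-thickness punch in skin. Depleted cells came from 10-week-old Foxp3(DTR/GFP) mice, called FDG, which carry the receptor for diphtheria toxin (DT) at Foxp3, and in which that toxin kills regulatory T cells (Tregs). Control cells came from wild-type C57BL/6J mice of the same age, and both arms received the toxin at 20 ng/g from 2 days before injury, daily until injury and then every 2 days for 1 week. Genotype and Treg depletion go together in this design, so that they cannot be told apart. There were 3 libraries per arm in heart and muscle and 4 in skin, at days 4 and 7 after injury, and in bone 5 per arm at day 7 and 3 at day 10. Those days are as the labels give them, although the series text names days 4 and 7.

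Lysosomes are the acidic compartment in which macrophages break down what they engulf, including dead cells and matrix at a wound. Their hydrolases reach them as inactive precursors, a proton pump keeps their inside acid, and glycosylated membrane proteins line the membrane and protect it. The transcription factors TFEB and TFE3 raise many lysosomal genes together by binding a short palindrome in their promoters whose core is CACGTG.

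Promoter windows reach from 250 bases before to 50 bases after a start site in RefSeq (GRCm38.p6), and 30 of the 34 genes had at least 1. Npc1, Asah1, Ctsh and Ctsb had none among the windows used, and whether RefSeq holds one for them was not tested. Shares of all genes given for promoters are of genes with a window among those used, which are not every gene. CACGTG, which reads the same on both strands, occurred in the windows of 10 of the 30 genes (33.3%), against 8.09% of 27025 genes in all. The longer palindrome TCACGTGA, which contains it, occurred in 4 of the 30 (13.3%), against 1.12% of all. A match describes the letters in the window. It is not shown to be bound and is given as no cause. Shown are the 4 genes with the longer palindrome, then Lamp1, which held 4 copies of CACGTG, and then 3 cathepsin and legumain genes with the largest changes described below. Each stretch of 30 bases is written 5′ to 3′ on the strand of the gene, placed to hold as many copies as it can, and capitals mark CACGTG.
Ctsa: CACGTGatgcagatgctCACGTGaccagag
Ctsd: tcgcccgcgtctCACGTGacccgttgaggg
Gla: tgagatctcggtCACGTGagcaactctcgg
Mcoln1: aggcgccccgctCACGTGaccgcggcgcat
Lamp1: CACGTGaccacatCACGTGcggaacggagc
Lgmn: tggaatgtctgtCACGTGgtccattttata
Ctsl: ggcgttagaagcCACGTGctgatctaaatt
Ctsf: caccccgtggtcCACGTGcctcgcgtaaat
The Ctsa stretch is chr2:164833761-164833790 on the plus strand, and that of Ctsd is chr7:142387908-142387937 on the minus strand. Those of Gla and Mcoln1 are chrX:134601182-134601211 (minus) and chr8:3500462-3500491 (plus). Lamp1 gave chr8:13159133-13159162 (plus) and Lgmn gave chr12:102439124-102439153 (minus). Ctsl gave chr13:64370739-64370768 (minus) and Ctsf gave chr19:4855074-4855103 (plus). Positions were counted from the start site of the window shown, taken as 0. The copy nearest to it began at 5 in Ctsa, at -15 in Lamp1, at -45 in Mcoln1 and at -49 in Lgmn. It began at -79 in Ctsf, at -98 in Ctsd, at -194 in Gla and at -236 in Ctsl. Ctsa and Lgmn each also had a window at another start site, which held 0 copies.

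Total counts per library ran from 2318223 to 5835064 in bone, from 3439649 to 6397377 in muscle, from 3013740 to 5392902 in skin and from 2642452 to 9788811 in heart. Levels are in CPM, the counts of a gene relative to the total of its library, with libraries scaled by TMM (the trimmed mean of M-values), and are given as mean ± SD, and values of single libraries run from the lowest to the highest. Bone, muscle and skin were scaled together and heart apart, so that heart levels are not set against the others. Changes are log2 changes with their standard error (SE), and each adjusted p comes from the quasi-likelihood test of edgeR, adjusted by Benjamini-Hochberg over all genes tested. Whether libraries of 1 group are separate animals is not in the labels, and p-values therefore reflect a spread among libraries that may be technical. A gene is said to have risen or fallen where that p is under 0.05. The 3 control heart libraries of day 4 stood apart from the other 9 heart libraries: their ribosomal protein genes summed to 63757 to 73587 CPM, against 20588 to 28195. All 10 markers of monocyte and macrophage identity had counts in each of the 16 groups. In bulk RNA, fewer cells of a type and less RNA per cell cannot be told apart.

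Of the 34 genes, 31 changed with depletion in at least 1 of the 8 tissue and day comparisons, and most of these calls were in bone. The share of all genes that changed in at least 1 of the 8 was not counted, so that the 31 cannot be set against it. At day 7 in bone 29 genes changed, 28 of them lower and 1 higher in depleted cells, where 23.6% of all 12709 genes tested changed. At day 10 in bone 18 were lower and 0 higher, where 17.2% of all genes changed. In heart 5 changed at day 4 (1 higher, 4 lower), where 11.1% of all genes did, and 0 at day 7, where 3.14% did. Muscle gave 0 at day 4, where 0.155% of all genes changed, and 6 at day 7 (2 higher, 4 lower), where 8.59% did. In skin 3 changed at day 4, all lower, where 3.57% of all genes did, and 2 at day 7 (1 higher, 1 lower), where 6.21% did. Outside bone the share of the 34 genes that changed therefore lay from 0 to 6 of 34 in each comparison. Lamp2, Psap and Tfeb changed in none of the 8.

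**Figure D1:**
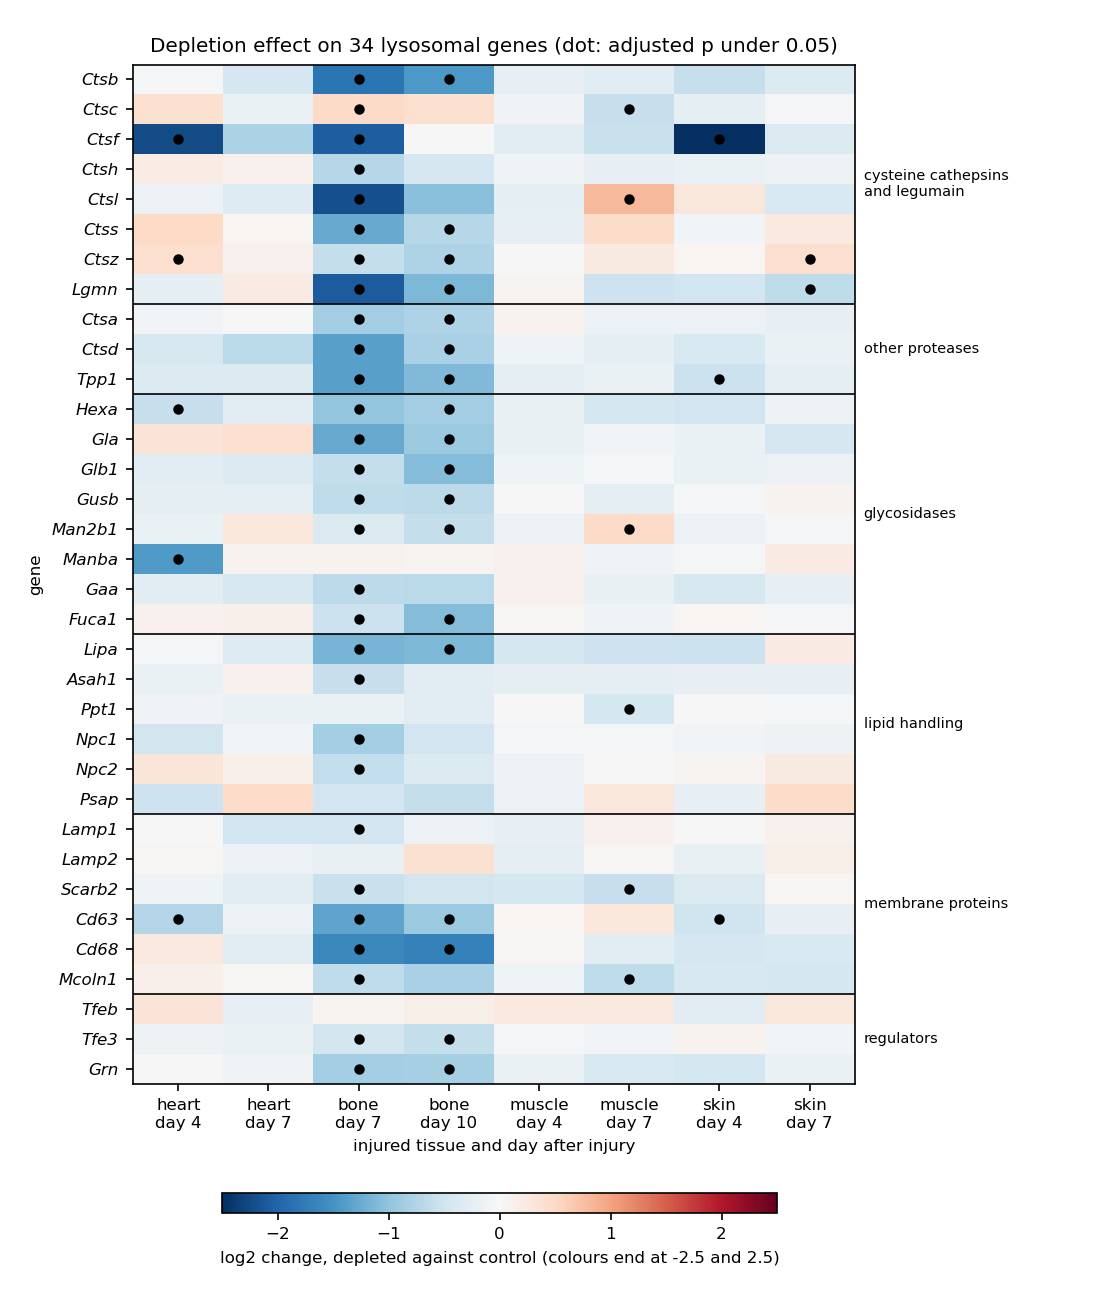
Log2 change of each of the 34 genes (vertical axis, grouped by role) between depleted and control cells in each tissue and day (horizontal axis). Blue is lower and red higher in depleted cells, and a dot marks an adjusted p under 0.05 by edgeR. The 28 lower and 1 higher calls of bone day 7 and the 18 lower calls of bone day 10 stand beside 0 to 6 calls in each of the other columns.

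The 34 genes were also summed in each library. In bone the sum was 23990.1 ± 2949 CPM in control and 13099 ± 2342 in depleted cells at day 7 (n = 5 per arm), and 22424 ± 2576 against 13214 ± 2332 at day 10 (n = 3). The arms did not overlap at either day. In muscle the sums were 49720.3 ± 2373 in control and 45467 ± 8630.1 in depleted cells at day 4 and 31894 ± 4167 and 33761 ± 1284 at day 7 (n = 3), with overlap between arms at both days. In skin the control and depleted sums were 27291 ± 1479 and 23279 ± 2682 at day 4, then 23869.8 ± 4368 and 24043 ± 2199.7 at day 7 (n = 4), again with overlap. Heart had sums of 52020.3 ± 5239 in control and 52346 ± 5530.3 in depleted cells at day 4, then 57976 ± 11044 and 51379 ± 5468 at day 7 (n = 3). The arms overlapped in heart at both days. A sum weighs each gene by its counts.

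**Figure D2:**
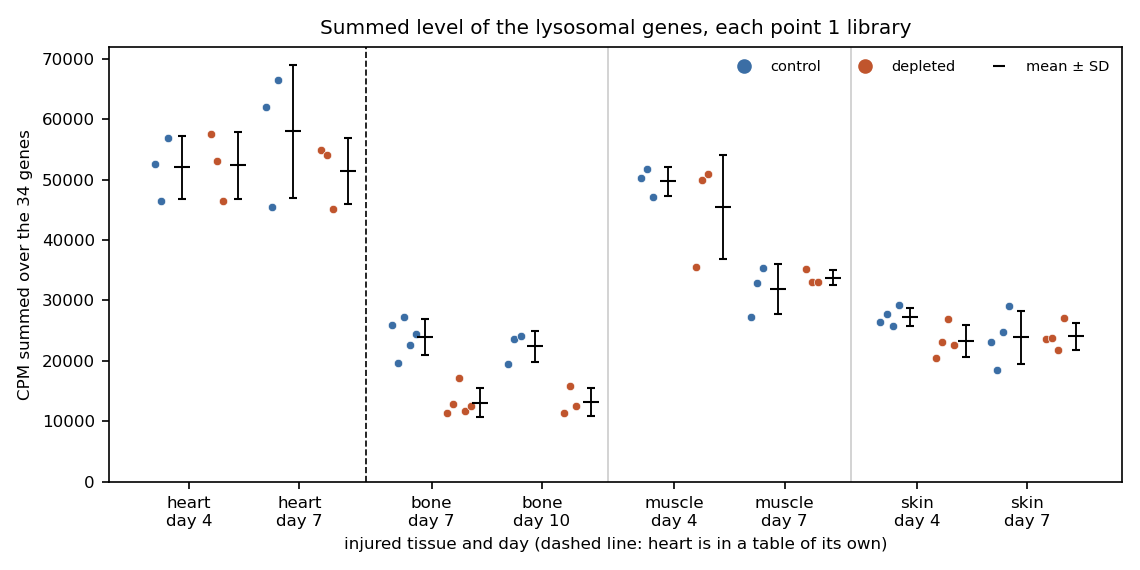
CPM summed over the 34 genes (vertical axis, linear from 0) in each library, by tissue and day (horizontal axis). Blue points are control and orange points depleted libraries, and black bars are mean ± SD. The depleted bone libraries lie below the control bone libraries at both days, and muscle is higher at day 4 than at day 7 in both arms.

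Bone held most of the changes, and the cysteine cathepsins and legumain led them. At day 7 all 8 genes of this group changed, 7 lower and 1 higher, with a median log2 change of -1.54. Ctsl, cathepsin L, a cysteine endopeptidase (ENSMUSG00000021477, chromosome 13, 64359337 to 64370890 in GRCm38), was at 83.3, 89.6, 95.2, 105 and 215 CPM in the 5 depleted libraries and at 345, 475, 488, 508 and 866 in the 5 controls. Every depleted library lay below every control. The log2 change was -2.20 (SE 0.29, adjusted p = 4.8e-05). Lgmn, legumain, a protease that cuts after asparagine and matures other cathepsins (ENSMUSG00000021190, chromosome 12, 102394084 to 102439813), was at 46.5, 57.5, 60.8, 67.6 and 111 CPM in depleted and 237, 279, 288, 294 and 354 in control libraries. Its arms did not overlap, and it fell with a log2 change of -2.09 (SE 0.22, adjusted p = 1.9e-06). Ctsb, cathepsin B, an endopeptidase that also trims dipeptides (ENSMUSG00000021939, chromosome 14, 63122462 to 63145923), was at 652, 736, 752, 822 and 1304 CPM in depleted libraries and 2220.0, 2665, 2990.2, 3319 and 3769 in controls. The lowest control was still above the highest depleted library, and the change was -1.82 (SE 0.19, adjusted p = 2.1e-06). Ctsf, cathepsin F, which also processes invariant chain in macrophages, had few counts, at 0.780, 0.834, 1.07, 2.24 and 3.42 against 6.23, 6.52, 7.12, 7.15 and 7.31 CPM. Its arms stood apart and its change was -2.07 (SE 0.43, adjusted p = 0.0013).

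Ctss, cathepsin S, the protease of antigen presenting cells that completes the cutting of invariant chain, was at 1263 ± 347 CPM in depleted and 3010.1 ± 684 in control bone cells at day 7. It fell with a log2 change of -1.26 (SE 0.19, adjusted p = 5.6e-05), but its arms met, because control library 2 at 1825 CPM lay below the highest depleted library at 1832. Ctsh and Ctsz, an aminopeptidase and a carboxypeptidase of the family, fell with log2 changes of -0.71 and -0.60. Ctsc, cathepsin C, which activates the serine proteases of granules in neutrophils and killer cells (ENSMUSG00000030560, chromosome 7, 88278085 to 88310888), was the only member that rose. It was at 546, 623, 714, 740.3 and 822 CPM in depleted and at 454, 459, 497, 501 and 529 in control libraries, with no overlap. The change was 0.48 (SE 0.11, adjusted p = 0.0037).

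The 3 other proteases fell together at day 7 in bone. Ctsd, cathepsin D, the aspartic endopeptidase of the lysosome (ENSMUSG00000007891, chromosome 7, 142375911 to 142388038), was at 312, 325, 353, 391 and 526 CPM in depleted and 845, 923, 1014, 1029 and 1048 in control libraries. Its change was -1.36 (SE 0.14, adjusted p = 1.4e-06). Tpp1, a peptidase that removes tripeptides (ENSMUSG00000030894, chromosome 7, 105744811 to 105752235), was at 52.5, 54.7, 56.9, 65.8 and 68.2 against 119, 139, 140.2, 164 and 198 CPM, a change of -1.37 (SE 0.14, adjusted p = 9.0e-07). Ctsa, a carboxypeptidase that also shields β-galactosidase and neuraminidase from breakdown, was at 320.2 ± 36.9 against 578 ± 62.2 CPM and fell with a log2 change of -0.86 (SE 0.12, adjusted p = 1.7e-05). None of the 3 had overlapping arms.

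Of the 8 glycosidases, which strip sugars from glycoproteins and glycolipids, 7 fell in bone at day 7, with a median of -0.62 over the 8. Gla, α-galactosidase A, went from 47.0 ± 9.92 CPM in control to 20.1 ± 4.59 in depleted cells, the largest fall of the group at -1.25 (SE 0.18, adjusted p = 3.1e-05). Hexa, the α subunit of β-hexosaminidase, was at 123, 135, 135, 139 and 146 CPM in depleted libraries and 232, 261, 263, 285 and 289.7 in controls. Its depleted values were closely spaced and all below the controls, with a change of -0.99 (SE 0.11, adjusted p = 1.7e-06). Gaa, Gusb, Glb1, Fuca1 and Man2b1 fell with log2 changes of -0.65, -0.64, -0.60, -0.54 and -0.36. They cut glucose from glycogen, glucuronic acid, galactose, fucose and α-linked mannose. Manba, which cuts β-linked mannose, was at 5.21 ± 0.924 against 4.81 ± 1.75 CPM and did not pass the test, with a change of 0.09 (SE 0.32, adjusted p = 0.87).

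Of the 6 genes that handle lipids, 4 fell in bone at day 7. Lipa, the acid lipase that frees cholesterol from its esters (ENSMUSG00000024781, chromosome 19, 34492318 to 34527474), was at 51.6, 57.8, 69.0, 74.2 and 79.3 CPM in depleted and 107, 140.2, 145, 149 and 195 in control libraries, with no overlap and a change of -1.17 (SE 0.18, adjusted p = 5.9e-05). Npc1 and Npc2, which hand cholesterol out of the lysosome, fell with log2 changes of -0.86 and -0.62, and Asah1, acid ceramidase, fell with a log2 change of -0.58. Psap, the precursor of the saposins that present lipids to their enzymes, was at 4758 ± 1185 against 6615 ± 1405 CPM, a change of -0.49 (SE 0.18, adjusted p = 0.053). Ppt1, which removes palmitate from proteins, was at 105 ± 8.03 against 116 ± 12.2 CPM, a change of -0.16 (SE 0.11, adjusted p = 0.31). Neither passed the test.

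Membrane proteins fell in 5 of 6 cases at day 7 in bone. Cd68, a heavily glycosylated protein of macrophage lysosomes that is also used as a macrophage marker (ENSMUSG00000018774, chromosome 11, 69664213 to 69666153), was at 229, 239.7, 288, 318 and 376 CPM in depleted and 747, 767, 939, 955 and 961 in control libraries. The arms were far apart and the change was -1.60 (SE 0.16, adjusted p = 5.6e-07), with the smallest adjusted p among the 34 genes. Cd63, a tetraspanin of late endosomes and lysosomes, was at 631, 866, 904, 995 and 1076 against 1901, 1915, 2145, 2441 and 2573 CPM, a change of -1.31 (SE 0.14, adjusted p = 1.4e-06). Scarb2, the carrier of glucocerebrosidase, and Lamp1, a main glycoprotein of the lysosomal membrane, fell with log2 changes of -0.56 and -0.47, with overlapping arms in both. The fifth, Mcoln1, is given with the regulators. Lamp2, the relative of Lamp1 that also serves chaperone-mediated autophagy, was at 138, 140.4, 149, 163 and 169 CPM in depleted and 129, 161, 173, 188 and 209 in control libraries. These ranges overlapped and the change was -0.19 (SE 0.13, adjusted p = 0.29).

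**Figure D3:**
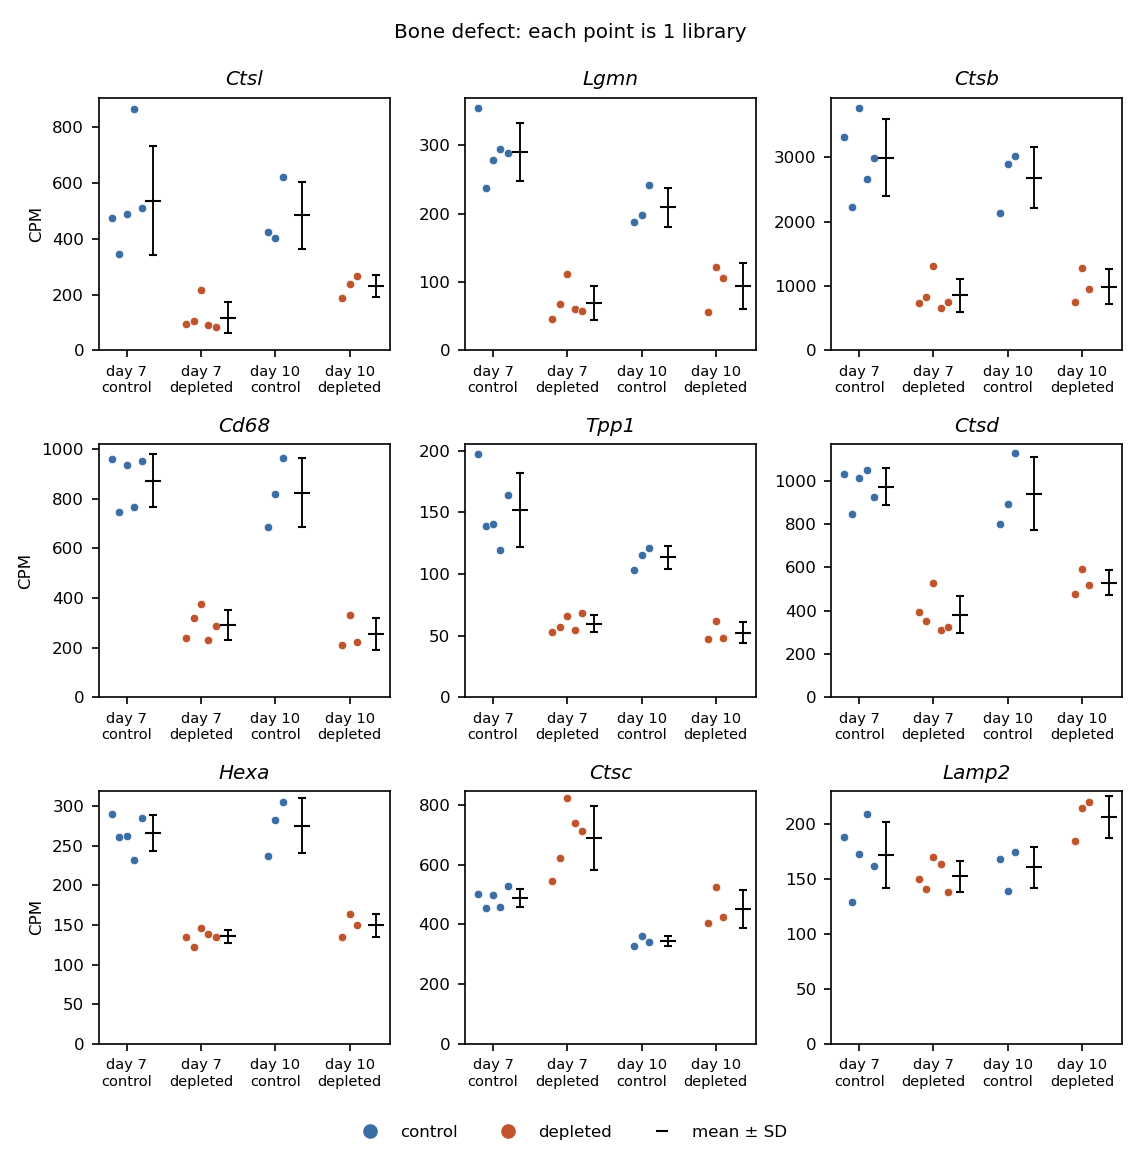
CPM (vertical axes, linear from 0) of 9 of the genes in each bone library, by day and arm (horizontal axes). Blue points are control and orange points depleted libraries, and black bars are mean ± SD. In the panels of Ctsl, Lgmn, Ctsb, Cd68, Tpp1, Ctsd and Hexa the depleted libraries lie below the controls at both days, while Ctsc lies above and Lamp2 overlaps at day 7.

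At day 10 in bone, 18 genes were lower in depleted cells, and all 18 were among the 28 that were lower at day 7. The 2 days share no library. By role the 18 were 4 of 8 cysteine cathepsins and legumain, 3 of 3 other proteases, 6 of 8 glycosidases, 1 of 6 lipid genes, 2 of 6 membrane proteins and 2 of 3 regulators. Cd68 had the largest change and was at 209.8, 224 and 329.6 CPM in depleted and 687, 822 and 966 in control libraries. The arms stood apart, with a change of -1.69 (SE 0.20, adjusted p = 4.1e-05). Ctsb was at 746, 946 and 1282 against 2135, 2894 and 3027 CPM, a change of -1.43 (SE 0.25, adjusted p = 0.00088). Lgmn, Lipa, Tpp1, Glb1, Fuca1 and Gla followed, with log2 changes of -1.13, -1.13, -1.10, -1.09, -1.08 and -0.93, none with overlapping arms. Cd63 (-0.92), Hexa (-0.87), Ctsd (-0.82), Ctsz (-0.77) and Man2b1 (-0.60) were among the other falls. Ctsl was at 189, 239 and 265 against 403, 425 and 623 CPM. Its arms did not overlap, but its change of -1.05 (SE 0.36, adjusted p = 0.055) did not pass the test. Ctsf, which had fallen at day 7, was at 4.39 ± 2.35 in depleted and 4.39 ± 2.25 CPM in control cells. Ctsc was at 406, 425 and 524 against 327, 342 and 362 CPM, a change of 0.41 (SE 0.15, adjusted p = 0.064). Lamp2 had a log2 change of 0.37, opposite in sign to that of day 7. Its arms did not overlap, but it did not pass the test.

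The median log2 change over the 34 genes in bone was -0.64 at day 7 and -0.69 at day 10, while that over all genes tested was -0.000448 at day 7 and -0.00474 at day 10. No difference between the days in depletion effect was detected: edgeR's test of it called 0 of 34 genes and 0% of all genes. Of the 34, 6 had an unadjusted p under 0.05, and DESeq2 and limma-voom called 0. The estimated log2 differences ran from -0.54 to 2.06. With any 1 bone library left out there were from 26 to 30 calls at day 7 and from 14 to 19 at day 10, and 25 of the 29 calls of day 7 and 12 of the 18 of day 10 held with each library left out. Without depleted library 3 of day 7, which was high for Ctsb, Ctsl and Ctsz, 29 genes were lower and 1 higher, with a median of -0.76.

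Other measures moved with the arm in bone, and their part in the fall of the 34 genes was not tested. Of 10 markers of monocyte and macrophage identity, 6 were lower and 1 higher in depleted cells at day 7, and 4 lower and 2 higher at day 10. Their summed level was 10037 to 14304 CPM in depleted and 12276 to 23144 in control libraries at day 7, and 8881 to 11181 against 11929.8 to 13575 at day 10. Csf1r, the receptor that macrophages need to survive, fell with a log2 change of -1.09 at day 7, Adgre1 (F4/80) with one of -1.31 and Cx3cr1 with one of -2.51, while Ly6c2, a gene of inflammatory monocytes, rose by 1.25. The 14 neutrophil markers summed to 9368 to 29037 CPM in depleted and 5957 to 13899 in control libraries at day 7 (7 higher, 0 lower) and to 18086 to 32818 against 5314 to 9893 at day 10 (7 higher, 0 lower). The 12 T and NK cell markers summed to 176 to 330.3 against 68.0 to 114 CPM at day 7 (7 higher) and to 148 to 277 against 70.8 to 185 at day 10 (2 higher). The 10 eosinophil, basophil and mast cell markers summed to 337 to 2762 against 183 to 469 CPM at day 7 and 1322 to 2155 against 295 to 758 at day 10, with 4 higher at each. The 8 osteoclast markers, which include the lysosomal genes Ctsk and Acp5, summed to 251 to 635 CPM in depleted and 802 to 2059.9 in control libraries at day 7 (5 lower) and to 245 to 345 against 835 to 1120.3 at day 10 (4 lower). The 7 dendritic cell markers summed to 11.2 to 23.7 against 43.7 to 73.9 CPM at day 7 and to 23.7 to 39.9 against 98.9 to 160.3 at day 10, with no overlap and 2 lower at each. Calcr, which defines osteoclasts, had no counts in either arm at day 10. The 9 fibroblast and mural cell markers summed to 134 to 1438 against 974 to 3539.9 CPM at day 7 (2 lower) and to 1803 to 2158 against 3031 to 6097 at day 10. Rn18s-rs5, a ribosomal RNA gene, ran from 63794 to 99795 CPM in depleted and from 15998 to 23916 in control bone at day 10, with no overlap, and from 47480 to 102659 against 13221 to 83880 at day 7. With its level as a covariate, 21 of the 34 genes were lower in depleted bone at day 7 and 0 higher, where 11.3% of all genes changed. At day 10 it left 2 lower and 0 higher, where 0.913% of all genes changed.

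Companion genes of the lysosome fell in bone as well. Of 17 subunits of the V-ATPase, the proton pump, 16 were lower and 0 higher at day 7, and 8 lower and 0 higher at day 10. Atp6v0d2, a subunit of osteoclasts and some macrophages, had the largest change, -1.96 (SE 0.31, adjusted p = 0.00019) at day 7, with 25.2 ± 9.78 against 97.1 ± 38.6 CPM. Atp6v0a1 and Atp6v1h fell with log2 changes of -0.90 and -0.80. Of 26 other hydrolases 19 were lower and 0 higher at day 7, and 9 lower at day 10. At day 7 Ctsk, cathepsin K, fell with a log2 change of -1.79, Hyal2, a hyaluronidase, with one of -1.72 and Acp5, an acid phosphatase, with one of -1.58. At day 10 the changes of Hyal2, Acp5 and Ctsk were -2.59, -1.81 and -1.79.

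In the other companion lists fewer genes changed. Of 21 other membrane proteins and transporters 4 were lower at day 7 in bone, led by Slc11a1, the metal transporter of phagosomes (-1.61), Mcoln2 (-1.50) and Slc17a5 (-0.92), and at day 10 3 were lower and 1 higher. The share of 4 in 21 at day 7 is below the 23.6% of all genes that changed, and that of 4 in 21 at day 10 is near the 17.2%. Of 10 genes that sort enzymes to the lysosome only Igf2r, a mannose 6-phosphate receptor, changed at day 7 (-1.37) and only Sort1, sortilin, at day 10 (1.23). Among 9 cathepsin inhibitors, Serpinb6a fell with a log2 change of -1.87 at day 7 while the stefins Stfa1 and Stfa2l1 rose by 2.66 and 1.63 from few counts, in all 3 lower and 2 higher. At day 10 Stfa1 and Stfa2l1 rose by 3.58 and 3.10. Of 12 autophagy genes 4 were lower at day 7, with Gabarapl1 at -1.40, Sqstm1, the cargo receptor p62, at -1.11 and Map1lc3a at -0.84.

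The regulators did not move as one. Tfeb was at 14.8, 16.3, 19.2, 22.4 and 24.5 CPM in depleted and 11.0, 16.5, 19.8, 21.0 and 22.6 in control bone libraries at day 7. The ranges overlapped, and the change was 0.07 (SE 0.19, adjusted p = 0.83). Tfe3 was at 77.8 ± 8.08 against 106 ± 11.2 CPM, with no overlap, and fell with a log2 change of -0.46 (SE 0.13, adjusted p = 0.011), and at day 10 with one of -0.60 (SE 0.17, adjusted p = 0.017). Grn, progranulin, a secreted and lysosomal protein that supports the enzymes, fell with log2 changes of -0.85 (SE 0.15, adjusted p = 0.00032) at day 7 and -0.83 (SE 0.20, adjusted p = 0.0069) at day 10. Mcoln1, the calcium channel through which lysosomes can activate TFEB, was at 11.2, 17.0, 17.5, 20.0 and 24.0 against 17.9, 23.9, 25.6, 32.7 and 37.8 CPM at day 7. These ranges overlapped and the change was -0.64 (SE 0.21, adjusted p = 0.034), and at day 10 it was -0.81 (SE 0.29, adjusted p = 0.062). Among the related factors, Mitf fell with log2 changes of -0.94 at day 7 and -1.44 at day 10, while Tfec rose by 1.58 and 1.12.

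The effect of depletion was then compared between tissues at day 7. In bone against muscle it differed for 16 of the 34 genes, where 8.28% of 14340 genes did. For 15 the effect was lower in bone, and for Ctsc it was higher. Ctsl differed the most, by a log2 difference of -3.00 (SE 0.47, adjusted p = 6.0e-05): it fell in depleted bone (-2.20) and rose in depleted muscle (0.81). Ctss, Lgmn, Ctsb and Cd63 differed by -1.72, -1.55, -1.55 and -1.55, and Cd68, Tpp1 and Gla by -1.31, -1.19 and -1.17. The difference for Ctsc was 1.07 (SE 0.18, adjusted p = 0.00011), as it rose in depleted bone and fell in depleted muscle (-0.57). In bone against skin 17 of 34 differed, 16 lower in bone and Ctsc higher, where 9.37% of all genes did. This comparison uses the same bone libraries as the one with muscle. Its largest differences were those of Ctsl (-1.80), Ctss (-1.48), Ctsb (-1.44) and Lgmn (-1.43). Between muscle and skin 0 of 34 differed at day 7, where 2.78% of all genes did, and 0 at day 4, where 0.265% did. At an unadjusted p under 0.05 edgeR gave 6 and 2 of the 34, and DESeq2 and limma-voom called 0 at both days.

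In muscle more of the genes changed with day than with depletion. From day 4 to day 7, 15 genes fell and 0 rose in control cells, where 7.24% of all genes changed, and 19 fell and 0 rose in depleted cells, where 19.4% did. Of these, 12 genes fell in both arms, which share no library: Ctsb, Ctsd, Ctsl, Glb1, Grn, Gusb, Hexa, Lamp1, Npc1, Ppt1, Scarb2 and Tpp1. In control cells Ctsl was at 1492, 1534 and 2074 CPM at day 4 and at 419.7, 495 and 567 at day 7. No library of day 7 reached those of day 4, and the change was -1.78 (SE 0.19, adjusted p = 1.8e-05). Ctsd went from 3528, 3778 and 4109 to 1217, 1752 and 1759.7 CPM, a change of -1.26 (SE 0.20, adjusted p = 0.00084). Lamp1 went from 649 ± 35.1 to 305 ± 31.1 CPM and Grn from 3150.2 ± 84.6 to 1661 ± 319, with changes of -1.08 and -0.92 and no overlap between days. The median over the 34 genes was -0.46 in control cells.

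In depleted muscle the largest fall was that of Ctsd, from 2273, 3895 and 4454 CPM at day 4 to 1224, 1300.4 and 1456 at day 7, a change of -1.41 (SE 0.20, adjusted p = 8.3e-05). Grn, Lgmn and Ppt1 followed, at -1.13, -1.09 and -0.93, none with overlap between days. The median over the 34 was -0.49. Depleted library 1 of day 4 lay below the other depleted libraries of that day for Ctsl, Ctsd and Lamp1. In control cells the count fell from 15 to 6 without control library 1 of day 7, to 8 without library 2 of day 4 and to 9 without library 3 of day 4. In depleted cells it stayed from 15 to 19. Beside this, the 10 monocyte and macrophage markers summed to 15588 to 17269 CPM at day 4 and 12248 to 15516 at day 7 in control cells, and to 11765 to 15641 and 9702 to 10073 in depleted cells. The 9 fibroblast and mural cell markers summed to 183 to 299.9 CPM at day 4 and 1188 to 1290.3 at day 7 in control cells, and to 102 to 141 and 1140.1 to 1491 in depleted cells. At day 4 and day 7 in depleted cells, the 14 neutrophil markers summed to 224 to 261 and 1111 to 2929.7 CPM, the 10 eosinophil, basophil and mast cell markers to 16.6 to 24.1 and 214 to 481, and the 7 dendritic cell markers to 12.7 to 16.9 and 48.4 to 65.7. Rn18s-rs5 was at 5075 to 9050 and at 16252 to 46605 CPM there, and none of these overlapped between days. The dendritic cell markers summed to 32.1 to 52.7 and 109 to 145 CPM in control cells. Their part in the change with day was not tested.

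**Figure D4:**
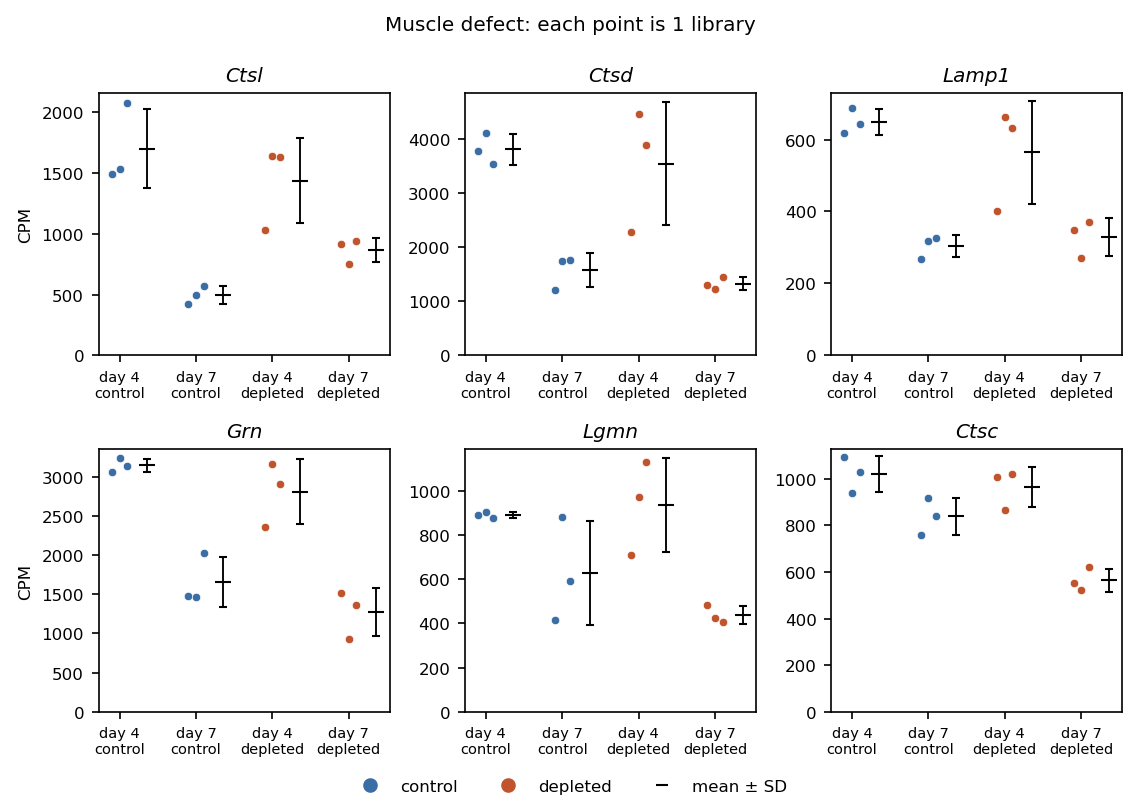
CPM (vertical axes, linear from 0) of 6 of the genes in each muscle library, by day and arm (horizontal axes). Blue points are control and orange points depleted libraries, and black bars are mean ± SD. Ctsd, Lamp1 and Grn lie lower at day 7 than at day 4 in both arms, and Ctsl at day 7 lies higher in depleted than in control libraries.

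With depletion, muscle changed at day 7 in 6 of the 34 genes and in both directions. Ctsl was at 750.5, 912 and 939 CPM in depleted and 419.7, 495 and 567 in control libraries, with no overlap, and rose by 0.81 (SE 0.18, adjusted p = 0.0083). Man2b1 rose from 221 ± 22.9 to 306 ± 23.5 CPM, a change of 0.47 (SE 0.13, adjusted p = 0.034). Mcoln1 was at 20.7, 29.0 and 29.3 against 39.8, 40.1 and 42.5 CPM and fell with a log2 change of -0.63 (SE 0.18, adjusted p = 0.039). Ctsc was at 522, 553 and 619.8 against 760.0, 841 and 919 CPM and fell with a log2 change of -0.57 (SE 0.13, adjusted p = 0.0073), the only one of the 6 calls that held with each library left out in turn. Scarb2 and Ppt1 fell with log2 changes of -0.58 and -0.44. The count was 3 without depleted library 3, without control library 2 or without control library 3 of day 7, and 2 when the groups of day 7 were fitted alone.

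At day 4 in muscle edgeR called 0 of 34 genes, with 2 at an unadjusted p under 0.05 and 0 called by DESeq2 or limma-voom. The effect of depletion differed between the days for 1 gene, where 2.41% of all genes did: Ctsl, by 1.06 (SE 0.26, adjusted p = 0.037). At day 4 it was at 1034, 1633 and 1640.2 CPM in depleted and 1492, 1534 and 2074 in control libraries, which overlap. That call was lost without any of 7 of the 12 libraries. Among other cells, the 14 neutrophil markers summed to 1111 to 2929.7 CPM in depleted and 199 to 243 in control muscle at day 7 (7 higher), and the 10 eosinophil, basophil and mast cell markers to 214 to 481 against 15.2 to 19.7 (4 higher). Epx, an eosinophil marker, had no counts in those controls. Of the 10 monocyte and macrophage markers, whose sums in both arms at day 7 did not overlap, 2 were lower and 1 higher. The 7 dendritic cell markers summed to 48.4 to 65.7 against 109 to 145 CPM (1 lower) and the 6 B and plasma cell markers to 55.1 to 93.6 against 138 to 192 (2 lower). Rn18s-rs5 ran from 16252 to 46605 CPM in depleted and from 5896 to 9908 in control muscle at day 7, with no overlap. Their part in the changes of day 7 was not tested.

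In skin 3 of the 34 genes changed with depletion at day 4, where 3.57% of all genes did, and 2 at day 7, where 6.21% did. At day 4 Tpp1 was at 119, 128, 129.6 and 142 CPM in depleted and 174, 189, 192 and 194 in control libraries, a change of -0.54 (SE 0.13, adjusted p = 0.021). Cd63 was at 1284, 1486, 1663 and 1779.9 against 1972, 2039, 2269 and 2409 CPM, a change of -0.49 with an adjusted p just under the threshold, at 0.0495. Ctsf had very few counts, at 0.254, 0.288, 0.340 and 1.07 against 2.47, 3.91, 3.93 and 4.61 CPM, and fell with a log2 change of -2.75 (SE 0.58, adjusted p = 0.0075). None of the 3 had overlapping arms. At day 7 Lgmn was at 354, 374, 387 and 390.5 CPM in depleted and 391, 609, 646 and 710.5 in control libraries. The lowest control lay just above the depleted libraries, and the change was -0.63 (SE 0.15, adjusted p = 0.013). Ctsz was at 678, 831, 845 and 851 against 531, 575, 661 and 672 CPM and rose by 0.41 (SE 0.12, adjusted p = 0.038). Hexa and Lgmn at day 4, at -0.48 (SE 0.15, adjusted p = 0.072) and -0.48 (SE 0.15, adjusted p = 0.087), did not pass the test.

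These skin counts changed when single libraries were left out. At day 4 the count was 1 without depleted library 1 or 4 or without control library 2, 3 or 4, and the call of Ctsf held throughout. At day 7 it was 1 without depleted library 1, 2 or 4 or control library 1, and 3 at the most. With day, 1 gene fell in control skin, where 2.27% of all genes changed: Grn, from 1918, 1948, 1991 and 2014 to 911, 1229, 1389.5 and 1684 CPM, with a log2 change of -0.59 (SE 0.15, adjusted p = 0.034), a call lost without any of 7 libraries. In depleted skin 1 gene rose, where 2.62% did: Ctsf, from 0.488 ± 0.391 to 2.96 ± 1.92 CPM, by 2.48 (SE 0.59, adjusted p = 0.021), lost without depleted library 1, 2 or 3 of day 4 or 4 of day 7. The depletion effect differed between the days in skin for 0 of 34 by edgeR, where 0.848% of all genes did, with 3 at an unadjusted p under 0.05 and 0 by DESeq2 or limma-voom. The 10 eosinophil, basophil and mast cell markers summed to 161 to 603 CPM in depleted and 18.4 to 59.6 in control skin at day 4, and the 10 monocyte and macrophage markers to 12466 to 17840.5 against 13453 to 19482. At day 7 these sums were 167 to 477 against 86.7 to 171 and 9581 to 12772 against 9443 to 13444 CPM. The 14 neutrophil markers summed to 644 to 801 CPM in depleted and 350 to 601 in control skin at day 4, with no overlap. At day 7 the 6 B and plasma cell markers summed to 33.3 to 66.7 against 70.2 to 98.3 CPM. The 5 keratinocyte markers summed to 5.76 to 7.56 against 21.8 to 50.5 CPM at that day, and neither list overlapped. Their part in the skin results was not tested.

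In heart at day 4 depleted cells were lower in 4 genes and higher in 1. Cd63 was at 1096, 1514 and 1642 CPM in depleted and 2068, 2465 and 2534 in control libraries, and Hexa at 631, 751 and 766 against 1002, 1046 and 1138. Neither overlapped, and the changes were -0.73 (SE 0.17, adjusted p = 0.0073) and -0.57 (SE 0.13, adjusted p = 0.007). Ctsf, at 0.577, 1.13 and 3.82 against 4.87, 8.00 and 8.23 CPM, had the largest change, -2.24 (SE 0.45, adjusted p = 0.0031). Manba was at 2.31, 4.68 and 8.79 against 12.3, 12.7 and 13.5 CPM, a change of -1.41 (SE 0.37, adjusted p = 0.017). Ctsz rose from 1930.3 ± 202 to 2571 ± 162 CPM, by 0.41 (SE 0.13, adjusted p = 0.043). Calls of Cd63, Hexa and Ctsf held with each library left out. The total was 3 without the depleted library F1 or F3 or the control W1, and 8 without the depleted library F2, which are the names in the columns of the heart table. The 12 T and NK cell markers summed to 15.7 to 53.1 CPM in depleted and 2.98 to 7.20 in control libraries (2 higher), and the 10 monocyte and macrophage markers to 21522 to 29522 against 18665 to 22816 (2 higher). The 14 neutrophil markers summed to 695 to 741 CPM in depleted and 638 to 824 in control libraries (3 lower), and the 7 dendritic cell markers to 11.8 to 24.8 against 44.3 to 49.6 (1 lower). Ribosomal protein genes summed to 23488 to 28195 CPM in depleted and 63757 to 73587 in control libraries of that day. Scaling without these genes gave the same count, 5. The part of these cells and of the ribosomal protein genes in the heart results was not tested.

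At day 7 in heart edgeR called 0 of 34 genes, with 11 at an unadjusted p under 0.05 (3 higher, 8 lower) and 1 called by DESeq2 and 1 by limma-voom. It was 1 also without the depleted library FDG3 or the control WT3. The depletion effect differed between the days for 1 gene, where 4.09% of all genes did: Psap, by 0.99 (SE 0.24, adjusted p = 0.024). Psap was at 1174, 1361 and 1428 CPM in depleted and 1738, 1976 and 1986 in control libraries at day 4, with no overlap and depleted lower, and at 1322, 2042 and 2053 against 1048, 1244 and 1624 at day 7, with overlap. Neither day passed the test by itself, at -0.53 (SE 0.17, adjusted p = 0.058) and 0.47 (SE 0.17, adjusted p = 0.14). The call of the difference was lost without any of 8 of the 12 libraries. At day 7 the 14 neutrophil markers summed to 416 to 743 CPM in depleted and 195 to 301 in control heart. The 10 monocyte and macrophage markers summed to 20311 to 25398 against 27029.9 to 32489 CPM, and the 10 eosinophil, basophil and mast cell markers to 28.3 to 64.5 against 7.26 to 21.0. None of these overlapped between arms, and their part in the results of day 7 was not tested.

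With day, heart changed more in the direction of higher levels. In control heart 9 genes rose and 2 fell from day 4 to day 7, where 31.8% of all genes changed, and in depleted heart 5 rose and 1 fell, where 27.3% did. These shares of the 34 genes are near or below that of all genes. Ctsf rose in both arms, from 4.87, 8.00 and 8.23 to 19.9, 21.5 and 27.1 CPM in control cells, a change of 1.69 (SE 0.31, adjusted p = 0.00051), and from 1.84 ± 1.74 to 13.3 ± 3.59 in depleted cells, a change of 3.13 (SE 0.41, adjusted p = 5.4e-05). In control cells Ctss went from 4786, 5020.4 and 5630.1 to 6751, 9916 and 10904 CPM, a change of 0.84 (SE 0.18, adjusted p = 0.0016), and Lamp1 and Tfeb rose by 0.61 and 0.59. Psap fell with a log2 change of -0.54. In depleted cells Man2b1 went from 302, 316 and 344 to 569, 597 and 686 CPM, a change of 0.95 (SE 0.11, adjusted p = 1.2e-05), Asah1 rose by 0.43 and Ctsc fell with a log2 change of -0.56. Without single libraries the control count was 7 (without WT1 of day 7 or W4 of day 4) or 8, and the depleted count ran from 3 (without F3 of day 4) to 12 (without FDG3 of day 7). The 10 monocyte and macrophage markers summed to 18665 to 22816 CPM at day 4 and 27029.9 to 32489 at day 7 in control heart, and to 21522 to 29522 and 20311 to 25398 in depleted heart. In control heart the 14 neutrophil markers summed to 638 to 824 CPM at day 4 and 195 to 301 at day 7, the 7 dendritic cell markers to 44.3 to 49.6 and 12.6 to 13.8, and the 6 B and plasma cell markers to 82.3 to 149 and 274 to 466. The ribosomal protein genes summed to 63757 to 73587 and 20588 to 24691 CPM, and none of these overlapped between days. In depleted heart the 9 fibroblast and mural cell markers summed to 167 to 184 CPM at day 4 and 367 to 588 at day 7. The 6 B and plasma cell markers summed there to 159 to 212 and 399 to 437 CPM. The 10 eosinophil, basophil and mast cell markers summed to 18.3 to 20.6 and 28.3 to 64.5 CPM, and these lists did not overlap between days either. Their part in the change with day was not tested.

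In bone the genes were compared between day 7 and day 10 within each arm. In control bone edgeR called 0 of 34 between day 10 and day 7, where 0.0393% of all genes changed, with 5 at an unadjusted p under 0.05, all lower at day 10, and 0 by DESeq2 or limma-voom. In depleted bone 3 rose and 2 fell, where 12.2% of all genes changed, so that the 34 genes stood near the share of all genes. Cd63 rose from 631, 866, 904, 995 and 1076 to 1137, 1418 and 1547 CPM, by 0.64 (SE 0.15, adjusted p = 0.011). Glb1 and Ctsc fell with log2 changes of -0.63 and -0.58, and Lamp2 rose by 0.46, all without overlap. The count was 1 without depleted library 1 or 3 of day 10, 3 without depleted library 1 or 2 of day 7 and 8 without depleted library 3 of day 7. The call of Lamp2 was lost with no filter on low counts and with Rn18s-rs5 as a covariate. In depleted bone the 9 fibroblast and mural cell markers summed to 134 to 1438 CPM at day 7 and 1803 to 2158 at day 10, without overlap. Their part in the change with day was not tested.

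Control cells of the 3 tissues that share a table differed in these genes before any question of depletion. At day 4 muscle was higher than skin in 22 genes and lower in 0, where 12.3% of all genes differed, and all 34 differences had a positive sign, with a median of 0.59. Lipa was at 344, 347 and 455 CPM in muscle and 99.9, 106, 108 and 131 in skin, a difference of 1.78 (SE 0.26, adjusted p = 6.2e-06). Ctsd was at 3528, 3778 and 4109 against 1358, 1420.4, 1453 and 1596 CPM (1.39). Psap (1.35) and Hexa (1.19) also stood apart without overlap. At day 7 muscle was higher than skin in 7 genes and lower in 1, where 11.9% of all genes differed. Lipa (1.61), Psap (0.93) and Ctsz (0.64) led the higher ones, and Ctsl, at 419.7, 495 and 567 against 812, 897, 1555 and 1936 CPM, was the lower one, with a difference of -1.40 (SE 0.35, adjusted p = 0.0069). The count at day 7 was 5 without control muscle library 2.

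Control bone at day 7 was lower than control muscle in 13 genes and higher in 0, where 13.6% of all genes differed. Lipa (-1.14), Lgmn (-1.12), Ctsc (-0.78) and Ctsd (-0.70) led. The count was 7 without control muscle library 2 and 6 without control muscle library 3. Against skin, control bone was lower in 8 genes and higher in 1, where 25.6% of all genes differed, so that the 34 genes stood near the share of all genes. Ctsl was lower in bone, with a difference of -1.28 (SE 0.30, adjusted p = 0.0014) and overlapping libraries, and Lgmn with one of -1.02 (SE 0.20, adjusted p = 0.00013) and no overlap. Psap was the one that was higher (0.50). That count was 5 without control skin library 3 and 4 without control skin library 4. In control cells of day 7 the summed level of the 10 monocyte and macrophage markers was 9443 to 13444 CPM for skin, 12248 to 15516 for muscle and 12276 to 23144 for bone. The 14 neutrophil markers summed to 1115 to 1925 CPM for skin, 199 to 243 for muscle and 5957 to 13899 for bone, without overlap. The part of these cells in the differences between tissues was not tested. In these comparisons the tissue, its injury and the sort go together and cannot be told apart.

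Over the 12 groups of bone, muscle and skin, the highest mean was in control muscle of day 4 for 21 genes and in depleted muscle of day 4 for 8. The lowest was in depleted bone of day 10 for 15 genes and of day 7 for 14. Between control and depleted muscle of day 4, edgeR's test called none of the 34 genes.

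With depletion, 4 genes changed in both directions, depending on tissue. Ctsl fell in bone at day 7 and rose in muscle at day 7, as given above, and in the other 6 comparisons its changes lay between -1.05 and 0.27 and did not pass. Ctsc rose in bone and fell in muscle at day 7. Ctsz fell in bone at days 7 and 10 (-0.60 and -0.77) and rose in heart at day 4 and skin at day 7 (0.41 and 0.41). Man2b1 fell in bone at both days and rose in muscle at day 7. The rises of Ctsl and Man2b1 in muscle and of Ctsz in heart and skin did not hold with each library left out. With Rn18s-rs5 as a covariate, the bone calls of Ctsc at day 7, of Man2b1 at both days and of Ctsz at day 10 did not pass. Between bone and muscle at day 7 the difference in effect passed the test for Ctsl, Ctsc, Ctsz (-0.81) and Man2b1 (-0.82), and between bone and skin for Ctsl, Ctsc (0.55) and Ctsz (-0.98). Heart is in another table and was not compared this way. The genes that fell in 3 or more of the 8 comparisons and rose in none were Cd63, Hexa, Tpp1, Lgmn and Ctsf. How many of all genes did so, or changed in both directions, was not counted. Cd63 fell in both days of bone, heart day 4 and skin day 4, and Hexa in both days of bone and heart day 4. Tpp1 fell in both days of bone and skin day 4, and Lgmn in both days of bone and skin day 7. Ctsf fell in bone day 7, heart day 4 and skin day 4. The skin calls of Cd63, Tpp1 and Lgmn did not hold with each library left out, while that of Ctsf did.

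**Figure D5:**
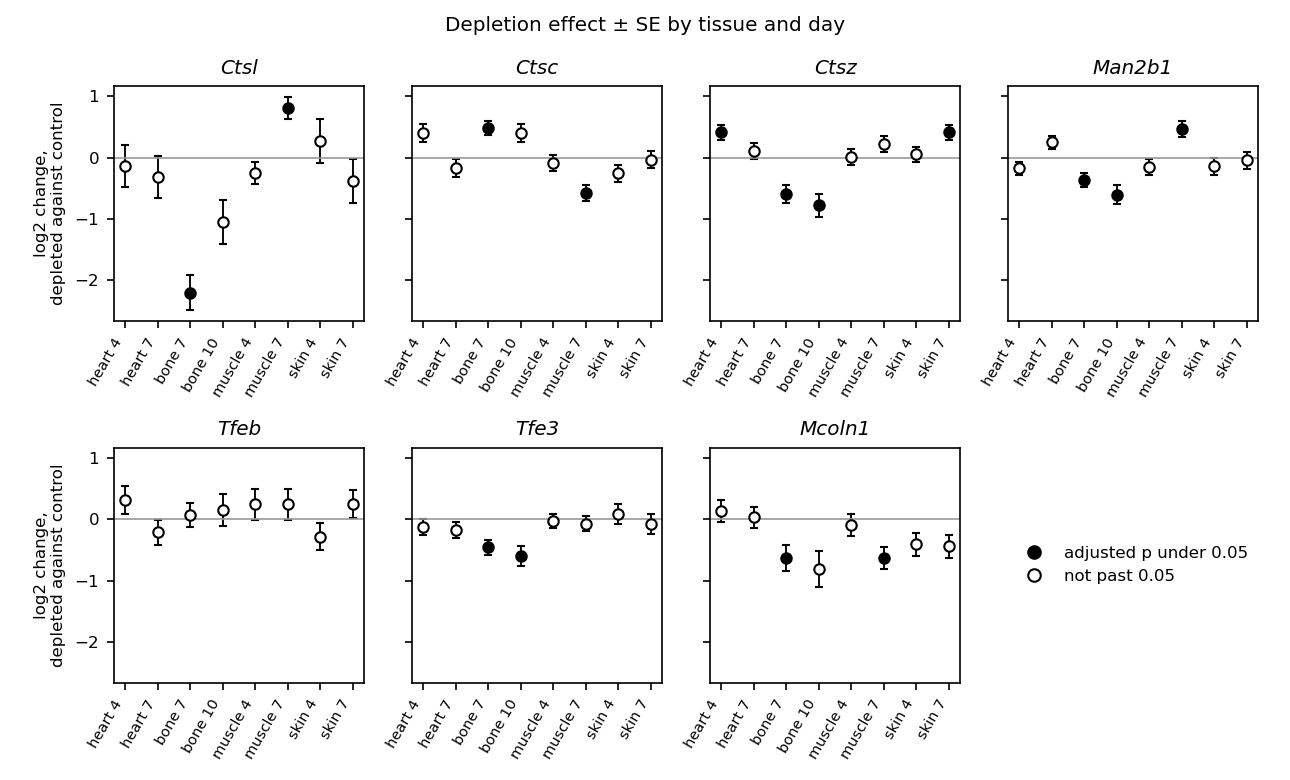
Log2 change between depleted and control cells ± SE (vertical axes) by tissue and day (horizontal axes) for the 4 genes that changed in both directions and for Tfeb, Tfe3 and Mcoln1. Filled points have an adjusted p under 0.05 by edgeR. Ctsl lies at -2.20 in bone and 0.81 in muscle at day 7, and Tfeb has no filled point.

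Outside bone, Tfe3 changed in no depletion comparison, with log2 changes from -0.17 to 0.09, and Tfeb had changes from -0.28 to 0.32. Mcoln1 was at -0.41 (SE 0.19, adjusted p = 0.29) and -0.44 (SE 0.19, adjusted p = 0.21) in skin and at 0.13 and 0.03 in heart. Tfec, a close relative of Tfeb that is expressed in myeloid cells, rose in depleted heart at day 7 (1.12), muscle at day 7 (0.90) and skin at days 4 and 7 (1.22 and 1.33). It was at 33.3 ± 8.50 CPM in depleted and 13.3 ± 2.12 in control skin of day 7, with no overlap. Among the 17 V-ATPase subunits outside bone, Atp6v0d2 rose in depleted muscle at day 7, at 135 ± 21.7 against 56.5 ± 8.11 CPM, a change of 1.26 (SE 0.19, adjusted p = 0.0004), and Atp6v0a1 in depleted skin at day 7 (0.85). In heart at day 4 Atp6v0d1 fell (-0.47) and Atp6v1e1 rose (0.40).

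Of the 26 other hydrolases, 3 were lower in heart at day 4, led by Ids (-1.11) and Arsa (-0.94), which cut sulfates, a share near the 11.1% of all genes, and Pla2g15, a lysosomal phospholipase, was lower at day 7 (-0.68). Muscle at day 7 had 3 lower and 1 higher, where 8.59% of all genes changed. Ctse, an aspartic protease of endosomes, rose there from 0.777 ± 0.325 to 8.53 ± 3.53 CPM (3.42), and Sgsh and Idua, which degrade heparan sulfate, fell (-1.44 and -0.90). Naaa, which breaks down palmitoylethanolamide, rose in depleted skin at both days, with a change of 0.74 at day 4 and of 1.51 (SE 0.15, adjusted p = 1.2e-06) at day 7. Skin at day 7 had 3 lower and 1 higher, where 6.21% of all genes changed. Clcn7, the chloride exchanger of lysosomes, was the only 1 of 21 other membrane proteins that changed in heart, and it rose at days 4 and 7 (0.55 and 0.73). Serpinb6a fell in muscle at day 7 (-1.09) and in skin at day 4 (-1.03), and Cst7, cystatin F, rose in muscle at day 7 (3.61). Of the autophagy genes, Gabarapl2 fell in heart at day 4 (-0.99) and Sqstm1 in skin at day 7 (-0.72).

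Some of these counts are uncertain because reads can be shared with other genes. A share of 0.332 of the 31-base words of Ctsd occurs in other genes, most often in Gm49369, which overlaps it on the same strand. For Cd63 the share in other genes was 0.159, most often in its pseudogene Cd63-ps. It was 0.0768 for Ctsl, most often in Gm49230, and 0.0513 for Glb1. Cd63-ps itself had 403 to 2787 counts per library in bone, muscle and skin and 9 to 92 in heart, while Gm49230 had at most 3 and Gm49369 at most 44.4 in the former.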

How the data were processed

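Bulk 3′ RNA-seq with molecular identifiers was analysed for 56 libraries in 16 groups. The authors deposited 1 table of gene counts for heart and 1 table of estimated counts for bone, muscle and skin, in which 19.4% of values above 0 lay more than 0.01 from a whole number, and which were rounded here. Per the submitters' processing notes STAR, Salmon, featureCounts and limma were used, with GRCm38 for heart and both GRCm38 and GRCm39 for the other tissues. Tool versions and what each build was used for are not given in sources used here. In heart, columns without a day in their names were read as day 7.

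Counts were scaled by TMM, filtered with filterByExpr and fitted with robust quasi-likelihood models in edgeR 4.0.16 (R 4.3.3). The day 4 and day 7 groups of a tissue (day 7 and day 10 in bone) were fitted together, and control tissues and differences in effect in 1 fit over bone, muscle and skin. A gene was called at a Benjamini-Hochberg adjusted p under 0.05 over all genes tested. The SE of a log2 change is its size divided by the root of the F statistic. The 34 genes, 7 companion lists (111 genes) and 11 marker lists were chosen with earlier results of these data known. Values were given for called genes with groups that do not overlap and a group mean of at least 5 CPM, by size of change, and always for genes called in 3 or more depletion comparisons or in both directions and for Tfeb, Tfe3 and Mcoln1. Other members and companion genes named were added after their values were seen. Promoters came from RefSeq (GRCm38.p6), gene positions from GENCODE M21.

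The alternatives were RLE scaling, no filter, DESeq2 1.42.0, limma-voom (limma 3.58.1), only the groups compared, a replicate block (for heart chosen after seeing the data, on the numbers in the column names), TMM without ribosomal protein genes, Rn18s-rs5 as a covariate in bone, and each library left out. The scripts were tested on simulated data. Total counts were 2318223 to 9788811 per library. Libraries with the same number did not pair (r from -0.134 to 0.195 between same-numbered libraries of a comparison, never all over 0.1). The number was that of the sample title in bone, muscle and skin and that of the column name in heart. Title numbers differ from those in some column names, so that pairing by the latter was not checked outside heart. The main models have no block.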

Additional observations from a re-analysis of the deposited data

Results flagged for a closer look

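Among 204 tests of a group's highest or lowest library, 11 values lay far from the others of their group. Chance gives about 1 in 20 groups, so that the number of such values is near that of chance. Depleted bone library 3 of day 7 was high for Ctsb (1304 CPM, the others 652 to 822), Ctsl (215, the others 83.3 to 105) and Ctsz (617, the others 375 to 441). In control bone of day 7 Ctss was low in library 2 (1825, the others 3124 to 3566) and Man2b1 high in library 1 (155, the others 146 to 148). In skin of day 4 Ctsf (1.07) was high in depleted library 4, Cd68 (841) in depleted library 3 and Tfeb (25.9) in control library 4. In skin of day 7 Ctsz (678) was low in depleted library 3, Ctsh (445) low in control library 2 and Cd63 (2585) high in control library 4.

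The effect of depletion differed by edgeR's test in 35 instances, given as log2 differences. Between day 7 and day 4 these were Psap in heart (0.99) and Ctsl in muscle (1.06). Of bone against muscle at day 7 they were Ctsl (-3.00), Ctss (-1.72), Ctsb (-1.55), Lgmn (-1.55), Cd63 (-1.55), Cd68 (-1.31), Tpp1 (-1.19), Gla (-1.17), Ctsd (-1.10), Man2b1 (-0.82), Ctsz (-0.81), Npc1 (-0.79), Psap (-0.75), Ctsa (-0.70), Npc2 (-0.61) and Ctsc (1.07). Of bone against skin at day 7 they were Ctsl (-1.80), Ctss (-1.48), Ctsb (-1.44), Lgmn (-1.43), Lipa (-1.34), Cd68 (-1.19), Ctsd (-1.16), Tpp1 (-1.09), Cd63 (-1.06), Ctsz (-0.98), Psap (-0.91), Hexa (-0.83), Npc2 (-0.81), Gla (-0.80), Gusb (-0.70), Ctsa (-0.62) and Ctsc (0.55). The last 2 comparisons share the bone libraries.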

How the results depend on the processing

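No call of a single gene reversed its sign under any alternative that was run. In depleted bone with day, 3 higher and 2 lower, the split was 2 and 4 with no filter, 2 and 3 with only the groups compared and 1 and 2 with Rn18s-rs5 as a covariate. With 1 library left out the median over the 34 genes changed sign in heart day 4 (-0.16 to 0.0033) and in control bone against skin (-0.18 to 0.04), among others. Over the calls of single genes, DESeq2 kept 207 of 208, limma-voom 201 of 208, RLE scaling 202 of 208, no filter on low counts 185 of 208, only the groups compared 111 of 119, the replicate block 178 of 185 outside heart and 22 of 23 in heart, Rn18s-rs5 as a covariate 26 of 52, TMM without ribosomal protein genes 23 of 23, and leaving out 1 library 1551 of 1847. The counts of changed genes that moved by over 1.5 times were these. With no filter the count was 9 in heart day 4 (from 5), 5 in heart day 7 (from 0), 12 in depleted heart with day (from 6), 2 in depleted skin with day (from 1), 6 and 2 for the day difference in heart and muscle (from 1 each), 1 in bone (from 0) and 1 for muscle against skin in effect at day 7 (from 0). With DESeq2 it was 1 in heart day 7, 5 in skin day 4 (from 3), 9 in depleted bone with day (from 5), 2 in depleted skin with day and 2 for the day difference in muscle. With limma-voom it was 1 in heart day 7 and 2 for the day difference in heart. With only the groups compared it was 2 in muscle day 7 (from 6), 5 in skin day 4, 1 in skin day 7 (from 2) and 0 in depleted skin with day. With the replicate block it was 5 in skin day 4, and no other count outside heart moved by over 1.5 times. In heart the numbers in the column names were used as a replicate block, an alternative chosen after seeing the data. It gave 8 at day 4, 1 at day 7, 10 in depleted heart with day and 2 for the day difference. With Rn18s-rs5 as a covariate it was 2 in bone day 10 (from 18), where the share of all genes changed was 0.913% (from 17.2%). In depleted bone with day it was 3 (from 5), where 10.9% of all genes changed. The causes were not tested.

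With 1 library left out the count ran from 3 to 8 in heart day 4, 0 to 1 in heart day 7, 3 to 5 in muscle day 7, 1 to 3 in skin day 4 and 1 to 3 in skin day 7. With day it ran from 7 to 8 in control heart (11 with all libraries), 3 to 12 in depleted heart, 1 to 8 in depleted bone, 6 to 14 in control muscle (15 with all libraries), 0 to 2 in control skin and 0 to 2 in depleted skin. The day difference in effect ran from 0 to 4 in heart and 0 to 1 in muscle. Control bone against muscle ran from 6 to 14, control bone against skin from 4 to 10 and control muscle against skin at day 7 from 5 to 9. Fits with only the groups compared were not run for the day differences. Ctsf and Manba have few counts, which limits their precision.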
